A study of Mus musculus with 36 samples.

Results

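The clustered protocadherin genes are 57 of the 21938 protein-coding genes of the mouse annotation, taken as every protein-coding gene of chromosome 18 (build mm10, GENCODE) whose symbol joins Pcdha, Pcdhb or Pcdhg to a number, a letter with a number, or c with a number. The set holds 14 Pcdha, 22 Pcdhb and 21 Pcdhg genes, all on the plus strand. By type, these are 12 alpha, 22 beta, 12 gamma A, 6 gamma B and 5 C-type genes (Pcdhac1, Pcdhac2, Pcdhgc3, Pcdhgc4 and Pcdhgc5). The same symbol, Pcdha11, is carried by 2 gene identifiers (ENSMUSG00000007440.10 and ENSMUSG00000102206.5), which were kept as 2 members. Pcdhgb8 is annotated as a polymorphic pseudogene and was not a member. The rule uses symbols and positions and no measured value.

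Protocadherins are cadherin-like adhesion proteins of the cell surface, and the clustered family gives a neuron a surface identity by which its own branches recognise and avoid each other. In the Pcdha and Pcdhg clusters each large variable exon has its own promoter and is spliced to constant exons at the end of the cluster, whereas each Pcdhb gene is a single large coding exon. A neuron is known to use a small and largely random choice of the alpha, beta, gamma A and gamma B promoters, in which CTCF, cohesin and DNA methylation take part, while C-type promoters are used more uniformly.

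Chromatin immunoprecipitation sequencing (ChIP-seq) of 3 histone marks was carried out in hippocampal tissue of mice at postnatal day 0 and in neurospheres. These are hippocampal neural progenitors taken at the same age and then cultured for 3 generations in suspension with FGF2 and EGF. The control group (Ctrl) carried Kdm2b fl/+ or Kdm2b fl/fl alleles, and the conditional knockout (cKO) group was Kdm2b Emx1-ΔCxxC, in which Emx1-Cre removes the CxxC zinc finger of KDM2B, the part that binds unmethylated CpG-rich DNA. Emx1-Cre acts in the dorsal forebrain lineage, so cells of other lineages in the dissected tissue keep the domain. The marks were H2AK119ub1 (placed by Polycomb repressive complex 1, PRC1), H3K27me3 (placed by PRC2) and H3K36me2 (a mark that the long form of KDM2B can remove), each with 2 libraries per genotype and source, 24 in all. No label says that the 2 libraries of a group came from separate animals or cultures, so every p-value below measures only the spread between these libraries, which may be technical. In bulk chromatin a region marked weakly in all cells and one marked strongly in a few cells cannot be told apart.

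The deposited files list islands, broad stretches with more reads than the input called by SICER in each library, with the read count of each island. Coverage below is the percentage of bases of a region that lie inside islands. A place without an island has no value, so 0% means only that no island was called at the depth of that library. Counts inside islands summed to between 987329 and 22021439 per library, and islands covered between 1.41% and 18.8% of the genome. A broad mark cannot show the deletion of single Kdm2b exons, and the genotype of a library was therefore not checked at the targeted gene. H3K27me3 was checked at promoters (here 2 kb on each side of the transcription start) of lineage genes. Those of the 7 non-neural lineage factors Gata4, Gata6, Hnf4a, Cdx2, Myod1, Pdx1 and Foxa2 held an H3K27me3 island in 6 to 7 cases per library. Those of 8 neural genes did in 0 to 4. These ranges cover both sources, so the check does not tell tissue from neurospheres.

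The Pcdha cluster spans 257.5 kb (chr18:36930184-37187661), the Pcdhb cluster 259.5 kb (chr18:37264938-37524479) and the Pcdhg cluster 180.1 kb (chr18:37661793-37841873), each from the first to the last base of its members. Variable exons, meaning the large first coding exon of a Pcdha or Pcdhg gene or the coding exon of a Pcdhb gene, made up 27.6% of these 697.1 kb. Their median length was 2894 bp, with a range from 2346 to 8695 bp. Member promoters were poorer in GC than promoters at large, with a median of 44.8% against 54.8% over all protein-coding genes. The median ratio of observed to expected CpG was 0.564 against 0.553. By type the median promoter ratio was 0.685 for alpha, 0.379 for beta, 0.587 for gamma A, 0.650 for gamma B and 0.672 for C-type genes, and the C-type promoters were also the richest in GC, with a median of 55.9%. Only 3 of the 57 member promoters had both a GC content over 50% and a CpG ratio over 0.6, against 44.4% of all promoters.

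H3K27me3 in neurospheres was the mark that covered most of the clusters. The 3 spans together were covered to 16.1% and 21% in Ctrl 1 and 2 and to 22.5% and 12.7% in cKO 1 and 2, where the genome was covered to 10.7%, 10.1%, 11.5% and 12.1%. The clusters therefore held 1.51, 2.07, 1.95 and 1.05 times the genome's share, and the lowest of the 4 was cKO 2. Within the spans the median island was 2.6, 2.4, 2.6 and 4.6 kb wide. This was close to the length of a variable exon in 3 libraries and wider in cKO 2. Over the whole genome the median island was 2.6, 2.2, 3.6 and 5.4 kb wide. The libraries held 46, 61, 60 and 20 islands there, at 50.9, 42.1, 38.9 and 31.1 counts per kb of island. These densities were 0.845, 0.804, 0.901 and 0.741 times those over all islands of the same library, so islands of the clusters held fewer reads per kb than islands elsewhere in all 4 libraries.

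The H3K27me3 islands of neurospheres lay over the variable exons and began close to their starts. Mean coverage of the 57 variable exons was 43.0% and 60.1% in Ctrl 1 and 2, and 63.8% and 14.6% in cKO 1 and 2. In the same libraries 691 coding exons of at least 2 kb outside the locus were covered to 19.6%, 20.8%, 21.7% and 15.2%. Thus 3 libraries had more H3K27me3 over the variable exons than over other long coding exons, and cKO 2 did not. Variable exons held 65.4%, 71.0%, 70.6% and 32.1% of all covered bases of the spans. At least 50% of the variable exon was covered in 28, 38, 41 and 9 members. Where a single island covered that much of the exon, its start lay at a median of -146, -24.5, +22.5 and -1220 bp from the exon's start, and its end at -146, -116, -175 and +362 bp from the exon's end. In many such members the start lay within 600 bp, the gap that SICER may bridge, of the exon's start. These were 22 of 28 in Ctrl 1, 29 of 36 in Ctrl 2, 34 of 40 in cKO 1 and 4 of 9 in cKO 2. The choice of members with 50% of the exon in 1 island itself limits these distances. The share expected from that choice was not computed.

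Around the transcription start the coverage was one-sided. The 2 kb downstream of member starts were covered to 48.0%, 66.2%, 72.1% and 16.4% (Ctrl 1, Ctrl 2, cKO 1, cKO 2), and the 2 kb upstream to 8.78%, 8.04%, 8.67% and 12.4%. Over all protein-coding genes the downstream values were 18.9%, 19.3%, 19.3% and 15.8%, and the upstream values 20.1%, 19.6%, 19.7% and 17.8%. Upstream of members there was thus less coverage than upstream of genes at large in every library, and downstream there was more in every library but by only a small margin in cKO 2. The share of members covered was highest at 1700, 1900 and 2100 bp past the start, at 52.6%, 75.9% and 81.2% of members, in Ctrl 1, Ctrl 2 and cKO 1, and in cKO 2 it did not pass 17.5% at any distance within 5 kb.

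**Figure D1:**
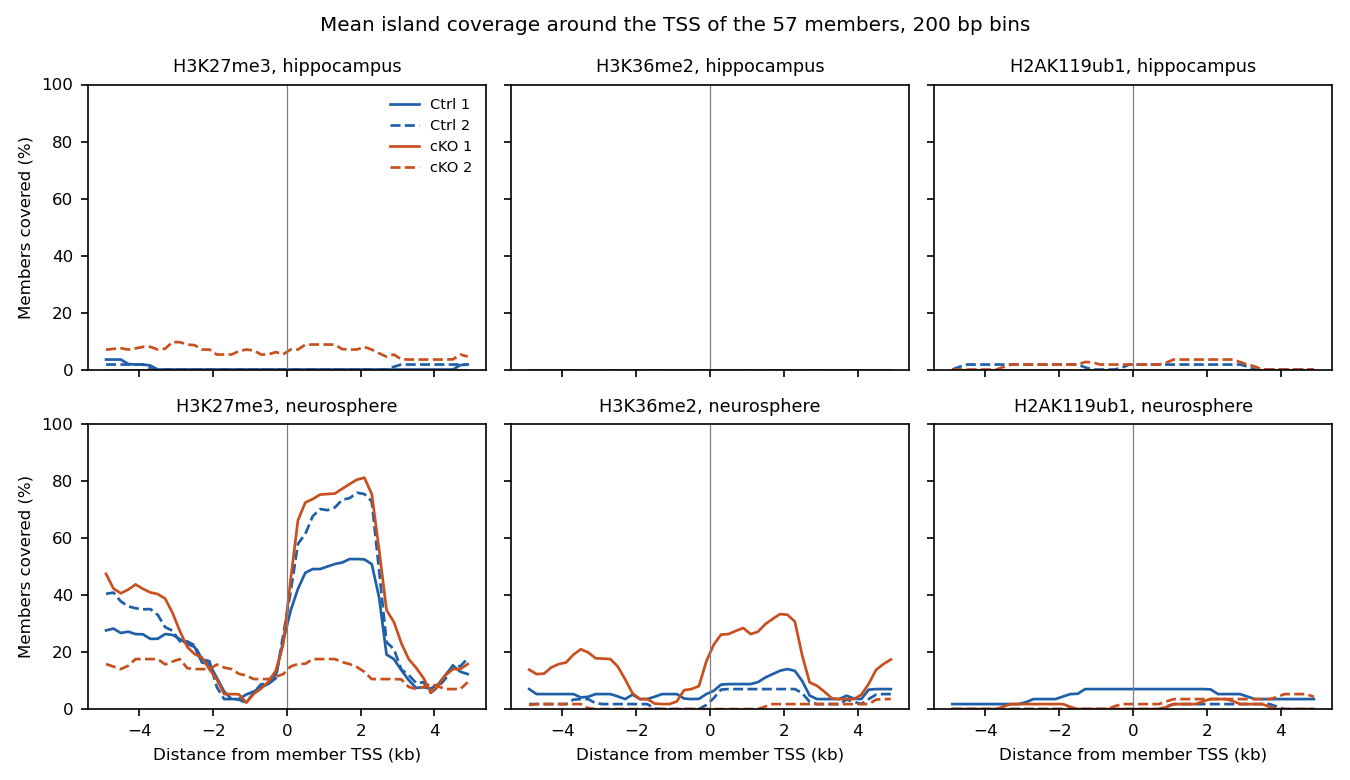
Share of the 57 members covered by islands (y axis, percent) against distance from the transcription start (x axis, kb), with 1 line per library and 1 panel per mark and source. The H3K27me3 neurosphere lines of Ctrl 1, Ctrl 2 and cKO 1 rise just after the start and reach 52.6% to 81.2% near 2 kb, whereas the line of cKO 2 stays at or under 17.5%.

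Neurosphere cKO 2 stood apart from the other 3 H3K27me3 libraries in ways that reach beyond this locus. Its median island over the whole genome was 5.4 kb wide, against 2.6, 2.2 and 3.6 kb, and its islands had a GC content of 44.0% against 46.9%, 47.8% and 47.3%. It covered 17.4% of genomic bins with a GC content of at least 50%, against 23.9%, 26.1% and 28.2%. The H3K36me2 library of the same group and number also had the lowest GC content of its 4 (43.5% against 46.2% to 47.9%). When each of the 4 H3K27me3 libraries was reduced to its densest islands up to the same covered length of 267.8 Mb, mean variable exon coverage was 43.0%, 60.1%, 60.4% and 6.64%, so the gap remained. The part of island width and GC content in the low protocadherin values of cKO 2 was not tested. The islands of Ctrl 2 and cKO 1 in the spans shared the most bases (Jaccard index 0.561), those of Ctrl 1 shared 0.403 and 0.378 with these, and the 3 pairs with cKO 2 lay between 0.139 and 0.173.

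The types differed in how much of their exons lay in H3K27me3 islands. Alpha exons were covered to 52.2%, 78.2%, 92.2% and 8.02% on average, gamma A exons to 44.5%, 77.2%, 83.1% and 8.31%, and gamma B exons to 62.3%, 64.8%, 72.1% and 13.7%. Beta exons, which are longer and poorer in GC (a median of 45.2% against 52.1% for alpha), were covered to 37.7%, 48.7%, 50.1% and 20.5%. The 5 C-type exons averaged 17.1%, 20.0%, 0% and 20.0%, and all of that came from Pcdhac1. C-type exons were thus the least covered in Ctrl 1, Ctrl 2 and cKO 1, and cKO 2 reversed the order, with beta and C-type exons the most covered.

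Among single members, 3 had at least 50% of the variable exon covered in all 4 neurosphere libraries, 22 in 3, 15 in 2, 8 in 1 and 9 in none. The 3 were Pcdhb5 at 93.8%, 93.8%, 76.8% and 100%, Pcdhb13 at 83.6%, 80.9%, 67.4% and 100%, and Pcdhga1 at 74.2%, 75.4%, 67.8% and 99.8%. Pcdha5 and Pcdhga2, named after their values were seen, had 100% in each of Ctrl 1, Ctrl 2 and cKO 1 and 0% in cKO 2. The pattern ran the other way for Pcdhb16, a beta member at 0%, 30.6%, 72.5% and 88.8%. Pcdhac2, Pcdhgc3, Pcdhgc4, Pcdhgc5 and Pcdhb21 had no H3K27me3 over the exon in any of the 4. Across the 57 members, which share islands and are not independent, variable exon coverage and the CpG ratio of the promoter had a Spearman rho of 0.218, 0.285, 0.489 and -0.164, and variable exon coverage and exon GC content had one of 0.166, 0.317, 0.375 and -0.198.

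**Figure D2:**
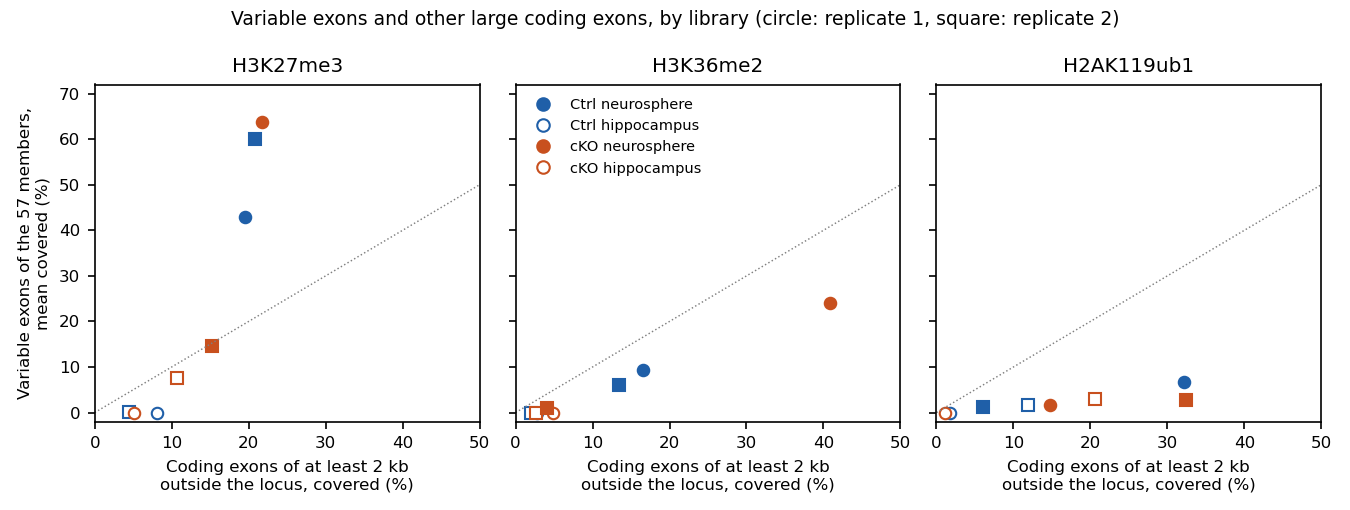
Mean coverage of the 57 variable exons (y axis, percent) against that of 691 coding exons of at least 2 kb outside the locus (x axis, percent), 1 point per library (circle, replicate 1; square, replicate 2) and 1 panel per mark, with a dotted line where both are equal. Neurosphere Ctrl 1, Ctrl 2 and cKO 1 lie far above the line for H3K27me3, at 43.0% to 63.8%, while cKO 2 lies close to it and every H3K36me2 and H2AK119ub1 point lies under it or at 0%.

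Mean promoter coverage of the 57 members was 28.4%, 37.1%, 40.4% and 14.4% (Ctrl 1, Ctrl 2, cKO 1, cKO 2). This was the order of libraries seen for the exons, with a lower mean in each. The order of types was not always kept, and in Ctrl 2 gamma A promoters averaged 51.2% and alpha promoters 42.5%. In cKO 2 beta promoters averaged 25.6%, above the 20.5% of beta exons. At least 1 H3K27me3 island touched the promoter of 33 and 45 members in neurosphere Ctrl 1 and 2, and of 47 and 14 in cKO 1 and 2. By type in these libraries, these were 7, 11, 12 and 1 of the 12 alpha, 13, 17, 18 and 10 of the 22 beta, 7, 11, 12 and 1 of the 12 gamma A, 5, 5, 5 and 1 of the 6 gamma B and 1, 1, 0 and 1 of the 5 C-type genes. Over all protein-coding genes 28.4%, 29.3%, 28.6% and 24.2% of promoters held one. Only 6 members, 10.5% of 57, had one in all 4 libraries, against 15.5% of all promoters. The promoter with the highest mean was that of Pcdhb13, at 65.0%, 47.5%, 62.5% and 100%. The first and last genes of the clusters differed: Pcdha1 held 49.6% in Ctrl 1, Ctrl 2 and cKO 1 and 0% in cKO 2, Pcdhb1 held 78.4%, 50%, 58.4% and 0%, Pcdhb22 held 0%, 36.8%, 1.75% and 0%, and Pcdhga1 held 80.0%, 34.8%, 44.8% and 49.8%. The last genes of the Pcdha and Pcdhg clusters, Pcdhac2 and Pcdhgc5, held none.

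**Figure D3:**
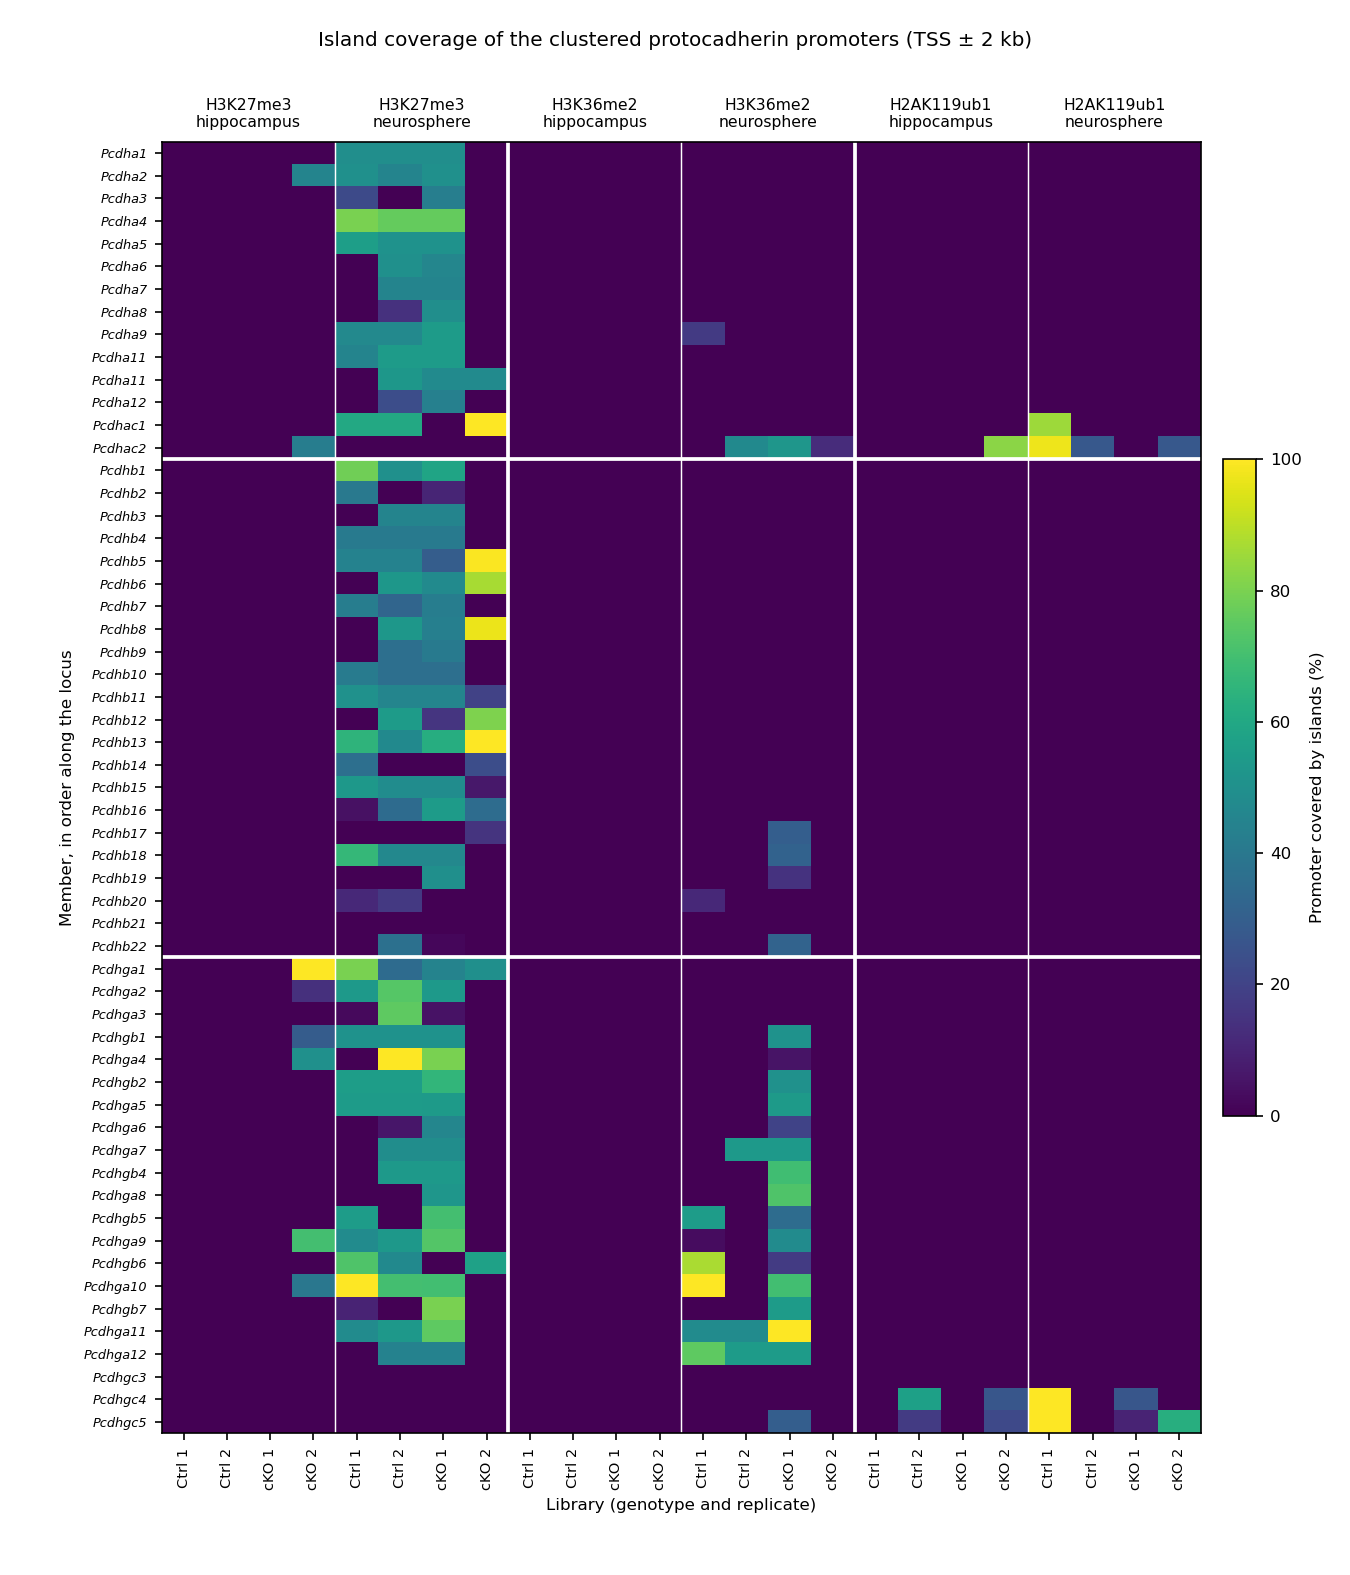
Promoter coverage of the 57 members (1 line each, in chromosomal order) in the 24 libraries (columns, grouped by mark, source and genotype), with a colour scale from 0 to 100 percent. H3K27me3 fills the neurosphere columns of Ctrl 1, Ctrl 2 and cKO 1 across the alpha, beta, gamma A and gamma B genes, and H2AK119ub1 appears at C-type genes.

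In hippocampal tissue the clusters held almost no H3K27me3. Together the spans were covered to 2.38% and 0.402% in Ctrl 1 and 2 and to 0.746% and 3.01% in cKO 1 and 2, against 5.62%, 2.07%, 4.62% and 6.04% of the genome. No member had an island at its promoter in Ctrl 1, Ctrl 2 or cKO 1, and 9 had one in cKO 2. In that library Pcdhga1 was covered to 100%, Pcdhga9 to 70.0%, Pcdhga4 to 50.2%, Pcdha2 to 45%, Pcdhac2 to 42.5% and Pcdhga10 to 39.8%, and the other 3 of the 9 to under 30%. Counts in islands were lower for this mark in tissue (1681001 to 5525016) than in neurospheres (13195590 to 17025504), and their part in the low member values was not tested. The 20 kb before Pcdhga1, an interval outside the clusters that was chosen because its values stood out, was covered to 49.0%, 43.0%, 47.0% and 77.0% in tissue and to 66%, 53.0%, 46.0% and 49.0% in neurospheres.

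H2AK119ub1 lay at C-type genes and at almost no other member. In neurospheres it covered the 5 C-type variable exons to 77.1%, 14.1%, 18.2% and 31.6% on average, and those of every other type to 0% in all 4 libraries. The promoter of Pcdhgc5 was covered to 100%, 0%, 10.0% and 62.8% in neurospheres and to 0%, 17.2%, 0% and 22.2% in tissue. That of Pcdhgc4 held 100%, 0%, 27% and 0% in neurospheres and 0%, 57%, 0% and 27% in tissue. Pcdhac2 held 97.6%, 27.6%, 0% and 27.6% in neurospheres and 82.5% in cKO 2 alone in tissue, and Pcdhac1 held 85.3% in neurosphere Ctrl 1 alone. Pcdhgc3, the remaining C-type gene, had no island of any mark at its promoter in the 24 libraries. The libraries with most C-type H2AK119ub1 were also those that covered most of the genome with this mark, with 12.4%, 4.78%, 6.57% and 11.8% in neurospheres and 1.73%, 5.94%, 1.41% and 9.33% in tissue, and with most GC-rich bins covered, at 39.0%, 10.1%, 19.5% and 36.5% and at 3.70%, 16.2%, 3.19% and 26.8%. The part of these library differences in the C-type values was not tested. The Pcdhb span had no H2AK119ub1 island in any of the 8 libraries.

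H3K36me2 in neurospheres covered more of the Pcdhg cluster than of the other clusters in each library. That span was covered to 21% and 18.5% in Ctrl 1 and 2 and to 39.2% and 8.33% in cKO 1 and 2, the Pcdha span to 1.71%, 4.27%, 5.67% and 6.21%, and the Pcdhb span to 0.308%, 0%, 2.62% and 0%. Together the spans held 6.17%, 6.37%, 13.2% and 4.45%, less than the genome's 14.0%, 16.3%, 18.8% and 13.2% in every library. Over the variable exons gamma A genes averaged 25.5%, 21%, 56.8% and 0.237% and gamma B genes 25.2%, 0%, 75.7% and 0%, while alpha genes averaged 3.9% in Ctrl 1 and 0% in the others. C-type genes averaged 0%, 19.4%, 22.8% and 10.1%, the highest of any type in cKO 2, with Pcdhac2 at 0%, 96.8%, 100% and 50.5%, and beta genes averaged 1.02%, 0%, 5.53% and 0%. Over all 57 variable exons the mean was 9.24%, 6.12%, 24.1% and 0.936%, under that of the other long coding exons (16.5%, 13.5%, 40.9% and 4.05%) in each library. The order of the 4 libraries was the same as for GC-rich bins, of which 35.0%, 31.6%, 50.5% and 14.8% were covered, and the part of GC content in the exon values was not tested. The promoter of Pcdhga11 had the highest mean, at 48.3%, 48.3%, 100% and 0%. In tissue the spans together held 0%, 0.316%, 0.172% and 0.545%, with no island at any of the 57 promoters.

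The stretch between the variable exons of Pcdhga12 and Pcdhgc3, 36.2 kb without a variable exon and chosen after its values were seen, held H3K36me2 in every neurosphere library. It was covered there to 43.6%, 53.7%, 62.6% and 41.0%, and in tissue to 0%, 6.07%, 3.31% and 10.5%. H3K27me3 covered 0.552% of it in neurosphere cKO 1 and 0% in the other 7 libraries. The 41.1 kb that follow the variable exon of Pcdhac2, chosen in the same way, held H3K36me2 at 7.78%, 19.6%, 22.1% and 35.2% in neurospheres and no H3K27me3 in any of the 8 libraries. The 18.7 kb from the first to the last C-type exon of Pcdhg (Pcdhgc3 to Pcdhgc5), also chosen after its values were seen, held H2AK119ub1 at 68.8%, 0%, 19.2% and 28.9% in neurospheres and no H3K27me3 in any of the 8. The stretch from Pcdhga1 to Pcdhga12, chosen likewise, had the opposite content, with H3K27me3 at 31.2%, 46.7%, 48.6% and 5.72% in neurospheres and no H2AK119ub1. The constant exons of both clusters held no H3K27me3 in any library.

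The bases marked by H3K27me3 and by H3K36me2 overlapped in part. In neurosphere Ctrl 1, Ctrl 2, cKO 1 and cKO 2 the spans held 17.4, 9.60, 38.8 and 0 kb in islands of both marks, which is 15.5%, 6.57%, 24.7% and 0% of the H3K27me3 bases and 40.5%, 21.6%, 42.2% and 0% of the H3K36me2 bases. Pcdhga10 was covered by both over its exon, with H3K27me3 at 100%, 99.8%, 100% and 0% and H3K36me2 at 99.8%, 0%, 92.2% and 0%. Pcdhga11 held H3K27me3 at 91.0%, 100%, 97.3% and 0% and H3K36me2 at 97.3%, 97.3%, 93.7% and 0%. The marks come from different libraries, so 2 marks on the same molecule and marks on different cells cannot be told apart. Over the 8 libraries of each mark, mean variable exon coverage and covered GC-rich bins had a Pearson r of 0.957 (H3K27me3) and 0.947 (H3K36me2). The part of GC content and of read mapping in this overlap was not tested. H2AK119ub1 and H3K27me3 shared 2.60 kb in Ctrl 1 and none in the other 3.

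The first comparison of the design asks whether loss of the CxxC domain changed the marks at these genes. For H3K27me3 in neurospheres the spans together averaged 18.5 ± 3.41% in Ctrl and 17.6 ± 6.95% in cKO (SD, n = 2 each), a difference of -0.95 points with an exact two-sided permutation p of 1, and the spread within cKO was larger than the difference. Of single spans, Pcdhb did not overlap between the genotypes, with 18.9% and 22.1% in Ctrl and 22.4% and 23.7% in cKO, with an exact p of 0.333, the smallest that 2 against 2 libraries allow. That direction turned at equal covered length, with 18.9% and 22.1% in Ctrl and 21% and 6.47% in cKO, and when divided by the genome's covered share. In tissue Pcdha had H3K27me3 at 1.79% and 1.09% in Ctrl and 2.02% and 2.87% in cKO, with the same exact p of 0.333, and this also turned at equal covered length, to a difference of -0.893 points. H3K36me2 covered neurosphere Pcdha to 1.71% and 4.27% in Ctrl against 5.67% and 6.21% in cKO, again with an exact p of 0.333. At equal covered length these were 1.71% and 2.10% in Ctrl against 1.32% and 6.21% in cKO, so the genotypes overlapped. Stratified over both sources, where the smallest p is 0.0556, the exact permutation p for the spans together was 0.889 for H2AK119ub1, 0.944 for H3K27me3 and 0.778 for H3K36me2. None of these differences could pass 0.05 in this design, and none of the stratified ones came near the smallest p.

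Member by member, promoter coverage in the 2 cKO neurosphere libraries lay above both Ctrl libraries in 1 member and below both in 3 for H3K27me3, that is 1.75% and 5.26% of members. Over all promoters these shares were 3.43% and 5.34%, so the members' count was at or under the background. The lower count moved with the setting: at equal covered length 6 members were lower (10.5% against 5.76% of all promoters), and with coverage divided by the genome's covered share 14 were (24.6% against 15.1%), with none higher in either. The 3 lower members were Pcdhga10, at 100% and 70.0% in Ctrl and 69.8% and 0% in cKO, Pcdhga5, at 55.0% and 55.0% against 54.5% and 0%, and Pcdhb20, at 11.6% and 16.6% against 0% and 0%. Pcdhb16 was the higher one, at 4.67% and 35.0% against 55.0% and 35.3%. For Pcdhga10 and Pcdhga5 the gap between cKO 1 and the nearest Ctrl library was under 1 point. Mean coverage was higher in cKO in 17 members, lower in 30 and equal in 10, with a median difference of -6.38 points against 0 over all promoters. That balance turned on cKO 2: without it the mean difference over members was 7.60 points and without cKO 1 it was -18.4 points.

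For the other marks and sources no member separated the genotypes. In H3K27me3 of tissue the background was 3.62% of promoters higher and 0.793% lower, in H3K36me2 of neurospheres 2.08% and 2.76% and of tissue 0.948% and 0.524%, and in H2AK119ub1 of neurospheres 2.13% and 3.75% and of tissue 0.579% and 0.483%. In most members no island was called in any of the 4 libraries for these marks (34 members for H3K36me2 in neurospheres, 48 for H3K27me3 in tissue, and 53 and 54 for H2AK119ub1 in neurospheres and tissue), so these counts of 0 rest on few members.

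Read counts could be compared only where every library of a mark and source had an island. Islands were merged across libraries, and 6 of 74 merged H3K27me3 regions and 4 of 38 merged H3K36me2 regions in the neurosphere clusters met this condition, and none in tissue or for H2AK119ub1. None of the 10 was called by edgeR's quasi-likelihood test at a false discovery rate (FDR) of 0.05, where the background of called regions was 0% for both marks. Only 1 of the 10 had an unadjusted p under 0.05, against 18.4% of the 11262 H3K27me3 regions tested in neurospheres and 2.14% of the 34454 H3K36me2 regions. DESeq2 called 734 and 83 regions of these genome-wide and none in the clusters.

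The region with the lowest p held the variable exons of Pcdhgb6 and Pcdhga10 (chr18:37741201-37750400). Its H3K27me3 islands in Ctrl held 373 and 235 counts, those in cKO 163 and 86, a log2 fold change of -1.24 (SE 0.48, unadjusted p 0.0492, edgeR adjusted p 0.270). All 4 values were in order of genotype, but the islands differed in length and in place. Per kb of island the counts were 42.4 and 37.9 in Ctrl and 38.8 and 35.8 in cKO. In Ctrl 1 and 2 the exon of Pcdhgb6 was covered to 100% and 95.8%, and that of Pcdhga10 to 100% and 99.8%. In cKO 1 these exons were covered to 0% and 100%, and in cKO 2 to 82.1% and 0%. The cKO islands did not overlap each other, so the fold change compares counts from different bases. With the covered length as an offset the log2 fold change was -0.09. Without cKO 1 it was -2.07, a value that rests on the lone cKO 2 library. The H3K27me3 region of Pcdhga1 (chr18:37661601-37665600) held 173 and 164 counts against 97 and 142 (log2 fold change -0.52, edgeR adjusted p 0.501), and that of Pcdhb13 (chr18:37439401-37446600) held 228 and 140 against 127 and 204 (-0.13, adjusted p 0.877). The H3K36me2 region of Pcdhga12 (chr18:37765801-37773000) held 333 and 279 counts against 279 and 70, with a log2 fold change of -0.51 and an edgeR adjusted p over 0.96. Whether the genotype effect differed between tissue and neurospheres could be tested at 1 region with H3K27me3 in all 8 libraries, the one that reaches Pcdhga1 from upstream (chr18:37644401-37665600). It held 290, 187, 338 and 504 counts in tissue (Ctrl 1, Ctrl 2, cKO 1, cKO 2) and 933, 645, 427 and 525 in neurospheres, and the interaction was -0.36 on the log2 scale (edgeR adjusted p 0.834). Of the 2373 regions tested in this way edgeR called 0, and 10.9% had an unadjusted p under 0.05.

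The second comparison sets Ctrl neurospheres against Ctrl hippocampal tissue. Promoter H3K27me3 was higher in both neurosphere libraries than in both tissue libraries in 29 of 57 members, 50.9%, and lower in none. Over all promoters 16% were higher and 2.77% lower. By type these were 6 of 12 alpha, 11 of 22 beta, 7 of 12 gamma A, 4 of 6 gamma B and 1 of 5 C-type genes. The median difference was 27.5 points over members and 0 over all promoters. All members were at 0% in both tissue libraries, and the largest values in neurospheres were 100% and 70.0% for Pcdhga10, 80.0% and 76.2% for Pcdha4, 78.4% and 50% for Pcdhb1, 53.8% and 73.8% for Pcdhga2, and 60.3% and 60.3% for Pcdhac1. The spans together averaged 1.39 ± 1.40% in tissue and 18.5 ± 3.41% in neurospheres (SD, n = 2 each, exact permutation p 0.333), and every neurosphere library was above every tissue library. In the cKO libraries, which that count did not use, 9 members (15.8%) were higher in neurospheres, against 9.21% of all promoters. Of the 9, 5 were among the 29, so 17.2% of the 29 recurred. The same recurrence over all promoters was not counted, so this share has no background.

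This difference between sources changed with 1 way of scaling the libraries, and in the spans it did not change direction with another. Tissue, culture and sequencing depth cannot be told apart in it, and GC-rich bins were also covered less in tissue (8.67% and 4.53% in Ctrl) than in neurospheres (23.9% and 26.1%), whose part in the result was not tested. Tissue Ctrl 2 had the shortest islands in sum, 54.9 Mb. When the other Ctrl libraries were reduced to their densest islands up to that length, 1 member was higher instead of 29 (1.75% against 2.7% of all promoters), the mean promoter difference was 0.60 points instead of 32.8, and the spans together were covered to 0.258% and 0.402% in tissue and to 0.373% and 0.604% in neurospheres. Protocadherin islands were less dense than the average island of their libraries, so most of them left the comparison by its construction, and whether they would appear in tissue at the depth of the neurosphere libraries was not tested. Divided by the covered share of the genome, the spans held 0.424, 0.194, 0.162 and 0.499 times the genome's share in tissue (Ctrl 1, Ctrl 2, cKO 1, cKO 2) against 1.51, 2.07, 1.95 and 1.05 in neurospheres. In the test stratified over genotypes this ratio had an exact permutation p of 0.0556, the smallest it can give. With promoter coverage divided in the same way, 29 members were higher in Ctrl neurospheres, against 12.7% of all promoters. Every member was at 0% in both tissue Ctrl libraries, so the division could not change this count of 29.

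**Figure D4:**
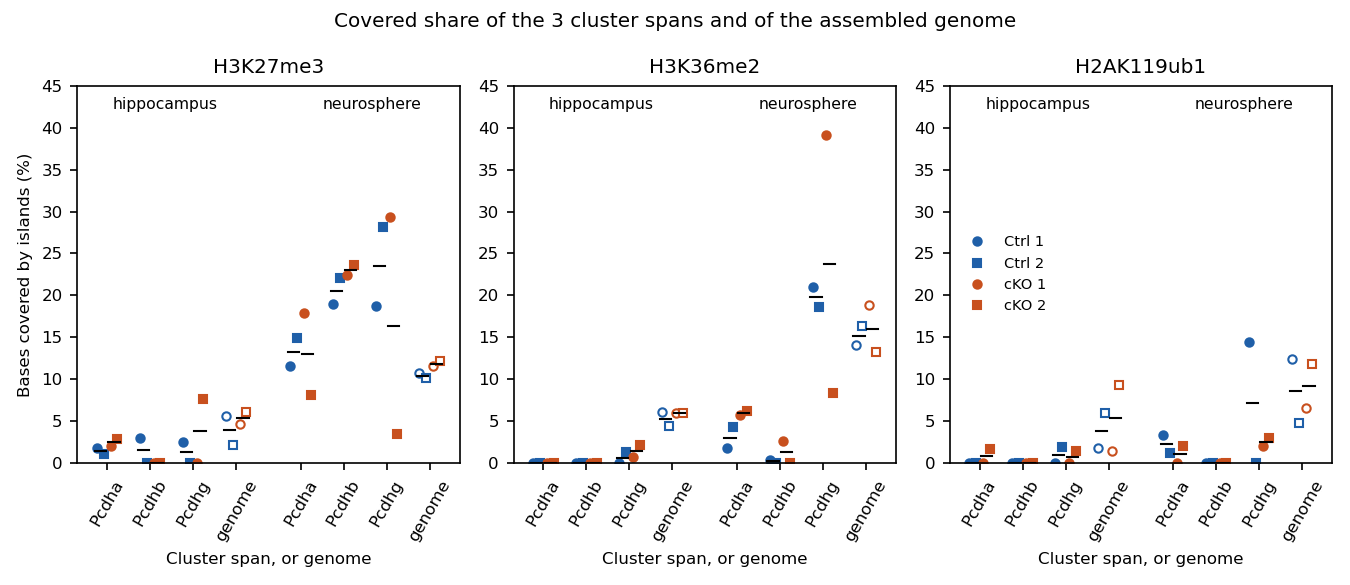
Coverage (y axis, percent of bases) of the Pcdha, Pcdhb and Pcdhg spans and of the genome (open points) in each library, with 1 panel per mark, 1 point per library and a short line at the mean of the 2 libraries of a group. For H3K27me3 the neurosphere points of Pcdhb lie between 18.9% and 23.7% and those of tissue at or under 2.93%, and in Pcdhg neurosphere cKO 2 falls to 3.44%.

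The other marks separated the sources in few members. H3K36me2 was higher in both Ctrl neurosphere libraries in 2 members, 3.51% against 10.6% of all promoters, and these were Pcdhga12 (75.0% and 55.0%) and Pcdhga11 (48.3% and 48.3%), each at 0% in tissue. H2AK119ub1 was higher in 1 member, 1.75% against 7.28%, which was Pcdhac2 (97.6% and 27.6% against 0% and 0%). Both shares were under the background, and no member was lower in neurospheres, against 0.342% and 0.538% of all promoters. In cKO libraries H3K36me2 was higher in 1 member (1.75% against 6.93%) and H2AK119ub1 in none (0% against 9.39%), and the background of lower promoters was 0.36% and 0.597%. The exact permutation p of the spans together, stratified over genotypes, was 0.0556 for H3K27me3 and for H3K36me2 and 0.278 for H2AK119ub1. With islands merged over the 4 Ctrl libraries of a mark, no region that reached into a cluster had an island in all of them, so counts were not compared between the sources at members. In tissue Ctrl the islands of the region tested above that reaches Pcdhga1 all lie before the cluster. Genome-wide edgeR called 34.5% of 3428 H3K27me3 regions.

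Related genes outside the clusters gave a reference, with lists that were set with earlier results of these data known. Of 11 non-clustered protocadherins, single genes outside the locus, 4, 4, 3 and 3 held a promoter H3K27me3 island in neurospheres and 1, 4, 2 and 5 in tissue, and 6, 3, 4 and 4 held H2AK119ub1 in neurospheres and 5, 8, 1 and 6 in tissue. Over all promoters 28.4%, 29.3%, 28.6% and 24.2% held H3K27me3 in neurospheres and 17.8%, 12.3%, 14.0% and 25.8% in tissue. For H2AK119ub1 these shares were 36.9%, 15.3%, 23.6% and 33.0% in neurospheres and 6.08%, 17.1%, 3.94% and 24.3% in tissue. The non-clustered genes thus had islands of both Polycomb marks in tissue as well. Of the 57 clustered members, 0, 0, 0 and 9 held H3K27me3 there and 0, 2, 0 and 3 held H2AK119ub1. Of 14 genes known to take part in regulating the clusters, 5, 5, 3 and 4 held H3K27me3 in neurospheres. Of those that encode CTCF and factors of the cohesin complex, Ctcf, Rad21, Smc3, Stag2, Nipbl and Wapl held none in any library. Smc1a, on the X chromosome, held 100%, 100%, 0% and 100% in neurospheres and 50% in tissue Ctrl 1. The non-clustered protocadherins Pcdh19 and Pcdh11x lie on the same chromosome. In neurospheres Pcdh19 held 100%, 100%, 0% and 100%, and Pcdh11x held 56.45%, 76.45%, 0% and 0%. The sample titles give no sex, and the part of sex in these values was not tested. Stag1 held 0%, 65%, 15% and 5.1% in neurospheres and 9.9% in tissue Ctrl 2. Of 18 neighbouring genes within 200 kb, 3, 5, 7 and 2 held H3K27me3 in neurospheres. Taf7, a gene of the general transcription machinery between the clusters, held 25.1%, 45.1%, 25.1% and 25.1% in neurospheres and 20.1%, 0%, 15.1% and 20.1% in tissue. Its promoter lies inside the 20 kb before Pcdhga1, so these values come from islands already counted there. At the promoter of Kdm2b itself no H3K27me3 island was called in any of the 8 libraries.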

How the data were processed

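ChIP-seq libraries of H2AK119ub1, H3K27me3 and H3K36me2 were grouped by the mark, source, genotype and replicate number in the sample labels, and the 12 inputs of the 36 samples were not analysed here. The authors trimmed reads with cutadapt, aligned them to mm10 with Bowtie2 (2.4.5 in the submitters' processing notes) and removed duplicates with samtools. Islands were then called against input by SICER (windows of 200 bp, gaps of up to 600 bp, FDR 0.01). The SICER version and the handling of reads that map to several places are not given in the sources used here. Members are near-identical in places, so assignment of islands to single members is uncertain, and its effect was not tested. The deposited files hold the position of each island and its raw read count, not normalised by the authors. No column belonged to another series.

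Members, types, starts and exons were taken from the GENCODE annotation of the same build. Coverage of each promoter (2 kb on each side of the transcription start), variable exon and cluster span was computed with Python 3.11.15, numpy 2.4.6 and scipy 1.17.1. Coverage was compared between libraries with exact permutation tests (two-sided), for which 2 against 2 libraries allow no p under 0.333 and the test stratified over 36 splits none under 0.0556. Counts of merged islands called in all libraries of a comparison were tested with edgeR 4.0.16 (quasi-likelihood, TMM, Benjamini-Hochberg FDR 0.05 over all regions) in R 4.3.3, with DESeq2 1.42.0 as an alternative, and the fits were tested on simulated data. No interval for counting error was given, since coverage is a share of bases. Alternatives were islands of at least 2 kb, equal covered length (the densest islands of each library up to the covered length of the shortest), division by the genome's covered share, a promoter of 1 kb on each side, DESeq2 size factors, a mean count of at least 50, an offset of covered length, the replicate block and leaving out each library.

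Genes named with values were the C-type genes, the first and last of each cluster, the member with the highest promoter coverage per mark and source, and up to 5 members per comparison whose groups did not overlap. Others are said to have been chosen after their values were seen, or belong to a counted group of 5 or fewer. Some encode CTCF or factors of the cohesin complex, or are non-clustered protocadherins on the X chromosome. Taf7 was named from the neighbouring genes under none of these rules. The members and all lists were chosen with earlier results of these data known.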

Additional observations from a re-analysis of the deposited data

How the results depend on the processing

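Coverage depends on what SICER called in each library, and 2 libraries per group cannot pass 0.05 in the exact tests. A region with no island has an unknown count, so a mark too weak for the depth of a library is not told from one that is absent. Differences below are in points of coverage, cKO minus Ctrl unless said otherwise, and the cause of each change was not tested.

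At equal covered length, H2AK119ub1 of neurospheres turned to +2.33 in Pcdhg and +0.0287 in the spans together. There 1 member was higher and 1 lower (1.62% and 2.47% of all promoters). When divided by genome share 1 was also lower (4.12%). H3K27me3 of tissue turned at equal covered length to -0.893 in Pcdha and -0.330 together. H3K27me3 of neurospheres turned at equal covered length to -6.74 in Pcdhb, with 0 members higher and 6 lower (2.78% and 5.76% of all promoters). Divided by genome share, that Pcdhb ratio was -0.0222 on the log2 scale, with 0 members higher and 14 lower (15.1% of all promoters were lower). With islands of at least 2 kb, H3K27me3 of neurospheres turned to +0.427 in Pcdha and +0.187 together, with 2 members higher (3.5% of all promoters). With a promoter of 1 kb on each side, 2 were higher and 1 lower (2.05% and 3.58% of all promoters). H3K36me2 of neurospheres had 1 member lower at equal covered length (3.03% of all promoters) and 1 when divided by genome share (5.54%). Between sources (neurosphere minus hippocampus, Ctrl) at equal covered length, H3K27me3 was -0.738 in Pcdha and 0.60 for the mean promoter, with 1 member higher (2.7% of all promoters), H3K36me2 was 2.71 for the mean promoter, with 1 member higher (2.06%), and H2AK119ub1 had 0 higher (1.54%). With the offset of covered length, the H3K27me3 region at chr18:37279201-37287400 was -0.18 and the H3K36me2 region at chr18:37167801-37171200 was -0.21 on the log2 scale.

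Leaving out 1 library at a time, where groups of 1 separate more easily, gave these ranges. For H3K27me3 in neurospheres, the spans together lay between -5.86 and 3.97 (Pcdha -5.09 to 4.70, Pcdhg -20.0 to 5.88), and the mean promoter between -18.4 and 7.60. There 3 to 14 members were higher (4.61% to 9.9% of all promoters) and 6 to 23 lower (8.97% to 9.92%). For H3K27me3 in tissue, the spans together lay between -0.646 and 1.62 (Pcdhg -1.22 to 6.33), with 0 to 9 members higher (4.43% to 16.1% of all promoters). For H3K36me2 in neurospheres, the spans together lay between -1.82 and 6.93 (Pcdhb -0.154 to 2.47, Pcdhg -11.4 to 19.4), and the mean promoter between -5.07 and 11.4. There 0 to 16 members were higher (3.27% to 27.7% of all promoters) and 0 to 6 lower (3.35% to 9.18%). For H2AK119ub1 in neurospheres, the spans together lay between -3.93 and 0.588 (Pcdhg -11.9 to 2.50), and the mean promoter between -5.60 and 0.633. There 0 to 1 members were higher (2.65% to 12.8% of all promoters) and 0 to 4 lower (4.38% to 20.1%). For H2AK119ub1 in tissue, the spans together lay between -0.244 and 0.703 (Pcdhg -1.22 to 0.666), and the mean promoter between -0.650 and 1.66. There 0 to 2 members were higher (0.62% to 15.1% of all promoters) and 0 to 1 lower (0.497% to 8.26%). Between sources, members higher lay between 29 and 45 for H3K27me3 (16.7% to 20.9% of all promoters, mean promoter 28.4 to 37.1). They lay between 2 and 9 for H3K36me2 (11% to 18.9% of all promoters, mean promoter 3.59 to 6.98). For H2AK119ub1 they lay between 1 and 4 (7.4% to 30.4% of all promoters, mean promoter -0.167 to 6.07, Pcdhg -0.944 to 13.4). On the log2 scale, regions lay between -2.07 and -0.74 (Pcdhgb6 and Pcdhga10), -0.0266 and 0.10 (H3K27me3 at chr18:37115801-37119400), -0.23 and 0.94 (H3K36me2 at chr18:37167801-37171200), -1.58 and 0.10 (Pcdhga12) and -0.12 and 0.41 (H3K36me2 at chr18:37794201-37803000).

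Beside these, 296 alternative values of the comparisons and 209 of single spans and regions were classed as unchanged. They kept their direction and their side of the threshold, or moved by less than the spread between libraries. The exact tests of spans could not cross the threshold in this design, so their side was fixed in advance. In most count fits no cluster region was tested, so few calls could change there. These totals therefore do not measure how robust the results are. The labels share replicate numbers between genotypes without saying what a number marks, and same-numbered libraries deviated with a correlation between -0.322 and 0.327 over regions in the 6 genotype fits. With the replicate block, 0 regions of the clusters were called in each fit, as without it. Among the genotype fits, only those of H3K27me3 and H3K36me2 in neurospheres had cluster regions to test.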

Other observations

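Gene models with other names lie inside the Pcdha cluster, among the members. H3K27me3 covered the promoter of Gm42416 to 80.0%, 78.5%, 78.5% and 0% in neurosphere Ctrl 1, Ctrl 2, cKO 1 and cKO 2, that of Gm37013 to 0%, 57.1%, 67.1% and 0%, and that of Gm37388 to 0%, 55.0%, 55.0% and 0%. They were counted among the neighbouring genes, and may lie in the same islands as members. Over the 24 libraries, the promoters whose coverage was nearest to the mean of the members of a cluster, by mean absolute difference, were those of Mcpt9 (2.29 points), Ppih (2.63) and Pik3c3 (2.82) for Pcdha, Gje1 (1.09), Rps20 (1.12) and Slu7 (1.22) for Pcdhb, and Mcpt9 (4.54), Sirt6 (4.73) and Hcfc2 (4.93) for Pcdhg. Most of the 24 values of each cluster are near 0, which many promoters share.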
